A study of Sus scrofa with 15 samples.

Results

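The immediate-early response genes FOS, FOSB, JUN, JUNB, EGR1, ATF3 and MYC were followed in Longissimus muscle of 15 pigs. Members were the non-control array probes whose gene name or description was one of these 7 genes. Of the 43603 non-control probes, 12 met this rule and represented 6 of the 7 genes: 4 for FOS, 3 for MYC, 2 for JUN and 1 each for FOSB, EGR1 and ATF3. JUNB was matched to no probe by name or description and is not analysed here. All 12 probes passed the filter on dim probes, so 6 of the 5036 genes tested were members. The pigs weighed 20 kg, were fed ad libitum and came from lines selected on residual feed intake (RFI), the feed eaten beyond what maintenance and growth are predicted to need. The low_RFI line (strain RFIneg, the more efficient) had 7 pigs and the high_RFI line (strain RFIpl) had 8. Each pig was measured on its own 1-colour Agilent array. Sex, litter, and how and when the muscle was taken are not given in the sources used here.

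Immediate-early genes are transcribed within minutes of a stimulus, from factors already present in the cell and without new protein synthesis, and their transcripts decay quickly. FOS and FOSB pair with JUN or JUNB to form AP-1, which binds a short palindrome in promoters and enhancers. ATF3 is a related leucine-zipper factor induced by stress, EGR1 is a zinc-finger factor induced through serum response elements, and MYC pairs with MAX to drive growth genes. In skeletal muscle this class of genes is known to respond to contraction, stretch, injury and handling.

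Between 61.7% and 79.5% of the probes on an array had a signal well above background, and saturation was flagged at 0 spots. Levels are given throughout as log2 of the processed signal, less the 75th percentile of that array, so a difference of 1 is a factor of 2. Levels of a probe can be compared between pigs, but not between probes. Of 16 skeletal muscle markers 13 were tested, all well above background on all 15 arrays, with a mean level of 8.62 to 9.03 in low_RFI pigs and 8.52 to 9.06 in high_RFI pigs. Each array name carries a pig number, from 1 to 8 or from 55 to 62, and the first principal component (23.3% of the variance) separated these runs of numbers. Both runs held both lines, 4 low_RFI and 4 high_RFI pigs in pigs 1 to 8 and 3 and 4 in pigs 55 to 62. What the numbers stand for is not given, so values within each run stand beside the pooled ones. There were 4 slides, and both lines were on every one. Low_RFI replicate 1 was the only pig of its line on slide 2, and the other slide values also rest on few pigs.

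The probes are 60 bases long. The first 4 below show what was hybridised for the AP-1 and EGR1 transcripts, and all of them were tested. The FOS and JUN probes listed first were named by accession, the FOSB, EGR1 and ATF3 probes by description alone.
FOS, probe A_72_P441284: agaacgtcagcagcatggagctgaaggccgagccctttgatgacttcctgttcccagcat
FOSB, probe A_72_P414133: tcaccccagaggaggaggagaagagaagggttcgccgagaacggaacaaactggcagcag
JUN, probe A_72_P178031: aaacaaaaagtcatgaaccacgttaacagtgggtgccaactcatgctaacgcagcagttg
EGR1, probe A_72_P305874: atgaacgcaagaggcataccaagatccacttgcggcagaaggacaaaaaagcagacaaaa
ATF3, probe A_72_P306548, first 30 bases: ttgcacacagtagttcctgtacagaacagc

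The brightest FOS probe, which represents the gene below, overlapped a second FOS probe. They shared 39 bases in runs of 18 and 21, with 0 bases between the runs in A_72_P596714 and 1 in A_72_P205307. The 30 bases from the start of the first shared run are shown, with the base between the runs in capitals.
FOS, probe A_72_P596714, bases 22 to 51: ttggtgaggtggtctgaagttctgacatta
FOS, probe A_72_P205307, bases 1 to 30: ttggtgaggtggtctgaaTgttctgacatt
Probes of a gene gave almost the same order of pigs. Line-centred levels correlated at 0.993 to 0.997 over the 6 pairs of FOS probes, at 0.95 between both JUN probes and at 0.98 to 0.99 over the 3 pairs of MYC probes, each over 15 pigs. Probes of a gene share the array and the RNA, so these values describe the measurement and not the animals. The position of the probes in the transcripts and the genome is not analysed here.

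All 4 FOS, 3 MYC and 2 JUN probes were well above background on 15 of 15 arrays. EGR1 was so on 14 (all but high_RFI replicate 4) and ATF3 on 12, with all 7 low_RFI pigs but 5 of 8 high_RFI pigs. FOSB was well above background on 10 arrays, 5 in each line. The processed signal, in scanner units, ran from 4921 to 61935 for FOS, from 26848 to 103974 for JUN and from 171.1 to 910.2 for MYC. It ran from 8.56 to 81.6 for EGR1, from 4.62 to 79.9 for ATF3 and from 4.17 to 41.6 for FOSB, so the last 3 were measured near background. A probe described as a C-myc fragment of another species was well above background on 5 arrays and was not counted as a member.

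FOS, the main partner of JUN in AP-1, had a level of 4.25, 5.48 and 6.504 in the lowest, median and highest low_RFI pig and of 3.57, 5.51 and 7.49 in high_RFI pigs. The high_RFI range enclosed the low_RFI range on both sides, and the lowest and the highest pig differed 15.1-fold. The line means were 5.51 ± 0.70 (SD, n = 7) and 5.48 ± 1.28 (SD, n = 8), a low_RFI minus high_RFI difference of 0.03 ± 0.50 (SE; 95% interval -1.04 to 1.11, limma adjusted p = 0.998). Within the slides the difference was 1.35, -0.72, 0.087 and -0.67, and within the runs 0.26 and -0.12. FOSB, a FOS relative whose transcript tends to follow FOS, had levels of -5.58, -4.47 and -3.82 in low_RFI pigs and of -6.63, -4.73 and -3.05 in high_RFI pigs. The lines overlapped widely, with a difference of 0.40 ± 0.44 (SE; 95% interval -0.56 to 1.36, limma adjusted p = 0.947). Normexp background correction with an offset of 50, which compresses the levels of dim spots, turned the FOSB difference to -0.085. Raising values not above background to the array's floor turned it to -0.023.

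JUN, a partner of FOS and FOSB in AP-1, had levels of 6.86, 7.58 and 7.95 in low_RFI pigs and of 6.08, 6.64 and 8.24 in high_RFI pigs. Of the 8 high_RFI pigs 7 lay below the low_RFI median, but high_RFI replicate 8 lay above every low_RFI pig. The low_RFI pig was higher in 43 of 56 pairs of pigs, and the difference was 0.55 ± 0.29 (SE; 95% interval -0.077 to 1.17, 1.46-fold). It did not pass (limma adjusted p = 0.763, range over the alternatives 0.343 to 0.926). It was 1.33, -0.13, 0.54 and 0.15 within the slides, 0.85 and 0.29 within the runs, and 0.53 with slide as a block.

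ATF3, a stress-induced factor that can pair with JUN, had the largest line difference of the 6 genes on these levels. It did not with normexp, whose offset of 50 compresses dim levels such as those of ATF3. There ATF3 gave 0.19, JUN 0.57 and MYC 0.28. The ATF3 levels were -4.18, -3.16 and -2.27 in low_RFI pigs and -6.42, -4.26 and -2.26 in high_RFI pigs. All but 1 low_RFI pig (replicate 6) lay above 7 of the 8 high_RFI pigs, while high_RFI replicate 8 was the highest of all. The means were -3.04 ± 0.65 (SD, n = 7) and -4.54 ± 1.30 (SD, n = 8), a difference of 1.504 ± 0.498 (SE; 95% interval 0.43 to 2.58, 2.84-fold). The low_RFI pig was higher in 48 of 56 pairs. The unadjusted limma p was 0.00824, but after adjustment over 5036 genes it did not pass (adjusted p = 0.511, range over the alternatives 0.224 to 0.875). The 3 arrays on which ATF3 was not well above background were all high_RFI (replicates 1, 3 and 6), so these pigs have only an upper bound. With them raised to the array's floor the difference was 1.13. The difference was 2.54, 1.08, 1.33 and 1.02 within slides 1 to 4 and 1.53 with slide as a block. Slide 1 held high_RFI replicates 1 and 6 and slide 4 held replicate 3, so these differences rest in part on values not well above background. It was 2.38 within pigs 1 to 8 and 0.52 within pigs 55 to 62. The first rests in part on high_RFI replicates 1 and 3 and the second on replicate 6, none well above background. The contrast between the runs is therefore not fully measured. The line-by-run interaction was -1.86 ± 0.93 (SE, limma adjusted p = 0.911).

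EGR1, which is induced by mechanical and growth signals, had levels of -4.92, -3.24 and -2.21 in low_RFI pigs and of -5.40, -3.70 and -2.32 in high_RFI pigs. Both lines covered nearly the same range, and the 3 lowest pigs were low_RFI replicates 3 and 4 and high_RFI replicate 4. The difference was 0.13 ± 0.48 (SE; 95% interval -0.90 to 1.15, limma adjusted p = 0.997) and turned to -0.0993 with normexp. MYC, the growth regulator, had levels of -0.39, 0.18 and 1.05 in low_RFI pigs and of -1.04, -0.52 and 1.33 in high_RFI pigs. Of the high_RFI pigs, 3 had levels from 0.58 to 1.33 and the other 5 from -1.04 to -0.47, and the low_RFI range lay within the high_RFI range. The difference was 0.34 ± 0.35 (SE; 95% interval -0.41 to 1.09, limma adjusted p = 0.947).

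Of the 6 genes, 0 passed between lines by limma at an adjusted p under 0.05, where 1 of 5036 genes (0.0199%) did. At an unadjusted p under 0.05 it was 1 of 6, ATF3, against 7.11% of all genes. All 6 differences were above 0, where 2786 of 5036 genes were. The 6 had a median of 0.37 beside 0.017 over all genes tested. However, the 6 values come from the same 15 pigs, and 5 of the 6 intervals include 0. Normexp turned the sign of FOSB and EGR1. The FOS difference fell below 0 in 6 alternatives, and another FOS probe gave -0.013. In whole muscle, a change in the share of cells of a type and a change of RNA per cell cannot be told apart.

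**Figure D1:**
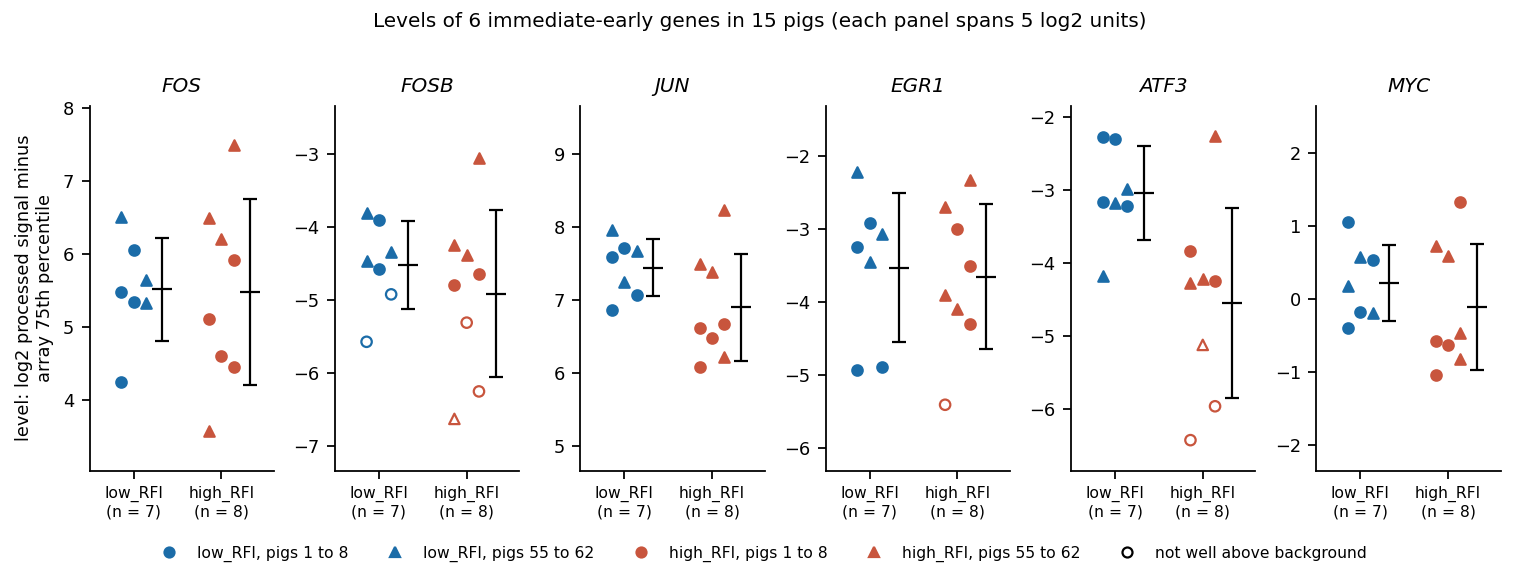
Levels of FOS, FOSB, JUN, EGR1, ATF3 and MYC (log2 units, relative to the 75th percentile of the array) in each of 7 low_RFI and 8 high_RFI pigs. Circles are pigs 1 to 8, triangles pigs 55 to 62, open symbols values not well above background, and bars the mean ± SD; the lines overlap in every panel.

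The genes varied more between animals of a line than most genes did. The SD within line was 1.05 for FOS, 1.05 for ATF3, 1.003 for EGR1, 0.93 for FOSB, 0.73 for MYC and 0.60 for JUN, beside a median of 0.26 and a 90th percentile of 0.60 over the 5036 genes. Ranked from the largest SD, ATF3 was 81st, FOS 82nd, FOSB 137th, MYC 304th and JUN 496th. The SDs of the dim probes depend on how background is handled, and the offset of 50 in normexp compresses their levels. With normexp the range of levels over the 15 pigs went from -6.42 to -2.26 down to -2.66 to -1.14 for ATF3, from -6.63 to -3.05 down to -2.81 to -1.38 for FOSB and from -5.40 to -2.21 down to -2.52 to -1.15 for EGR1. The SDs of ATF3 and FOSB also rest on 3 and 5 arrays not well above background. Since SD varied with level, each gene was also set beside those with a mean level within 1 of its own. FOS, a bright probe, had a larger SD than all 280 such genes, whose median SD was 0.20. For JUN, 3.16% of 158 such genes had a larger SD, and for MYC 5.47% of 1189. For the dim probes it was 2.94% of 918 for ATF3, 3.42% of 966 for EGR1 and 7.28% of 577 for FOSB.

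**Figure D2:**
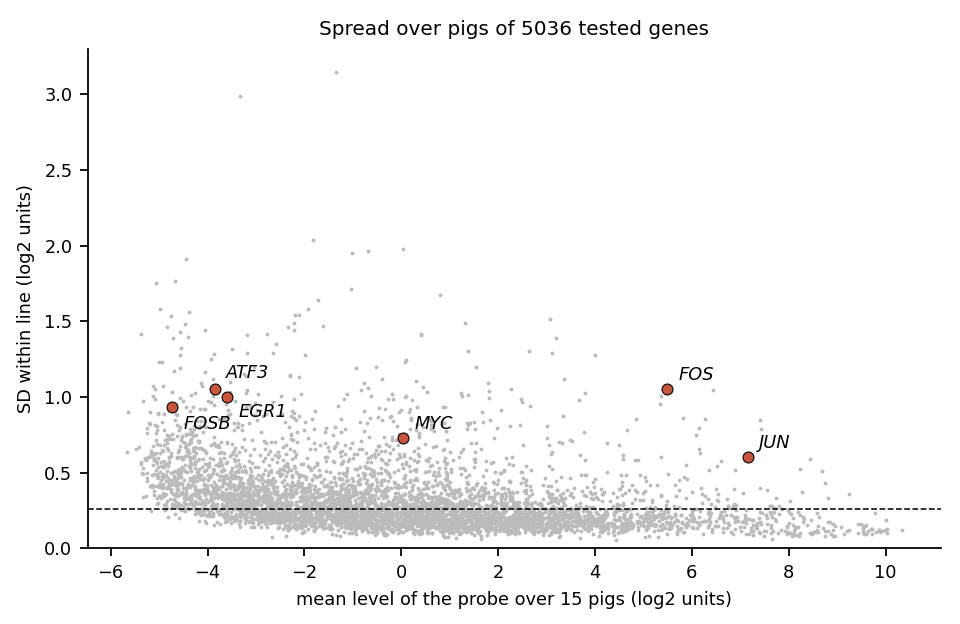
SD within line against the mean level of the probe over 15 pigs for 5036 tested genes (grey), with the 6 immediate-early genes in red and the median SD of 0.26 as a dashed line. FOS lies at the upper edge of genes of like level, while ATF3, EGR1 and FOSB lie among dim probes.

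Some pigs held like ranks for several of the genes. High_RFI replicate 8 had the highest level of all 15 pigs for FOS, FOSB, JUN and ATF3 and the second highest for EGR1. Low_RFI replicate 7 ranked 2nd for FOS and JUN and 1st for EGR1. At the other end, high_RFI replicate 6 ranked last for FOS and 14th for JUN, and high_RFI replicate 1 ranked last for JUN. Neither pig was well above background for FOSB or ATF3, so their places among the lowest pigs for these genes were not measured. MYC had another order, with high_RFI replicate 4 first and low_RFI replicate 3 second, both among the lowest 3 for EGR1.

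**Figure D3:**
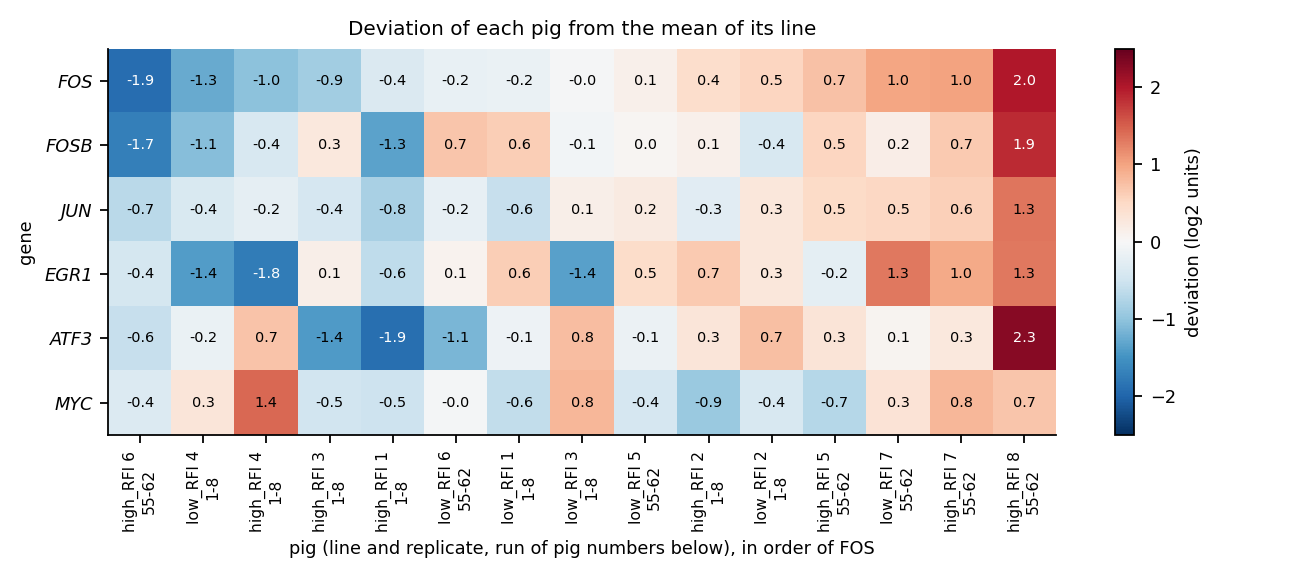
Deviation of each pig from the mean of its line (log2 units, colour and printed value) for the 6 genes, with pigs ordered by FOS and labelled by line, replicate and run of pig numbers. High_RFI replicate 8 is above its line mean in all 6 genes, and high_RFI replicate 6 and low_RFI replicate 4 are below it in FOS and JUN.

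Pairwise correlations of line-centred levels over the 15 pigs put numbers to this. Of the 15 pairs, 14 had a Pearson r above 0, with a median of 0.51. The 10 pairs without MYC ran from 0.20 to 0.85 with a median of 0.66, and the 5 with MYC from -0.27 to 0.47 with a median of 0.16. FOS and JUN, the partners of AP-1, had the highest r of the 15, at 0.85 (permutation p = 0.00036, adjusted over the 15 pairs p = 0.0054; Spearman rho 0.86, permutation p = 0.00034). Only 1 of the 5035 other genes correlated with FOS as strongly as JUN did, and 0 correlated with JUN as strongly as FOS did. FOS and FOSB gave 0.77 (permutation p = 0.00348, adjusted p = 0.0136; rho 0.61, p = 0.0295), and JUN and ATF3 0.77 (p = 0.00362, adjusted p = 0.0136; rho 0.67, p = 0.0135). FOS and EGR1 gave 0.71 (permutation p = 0.00352, adjusted p = 0.0136; rho 0.78, p = 0.00199). FOSB and JUN gave 0.71 (permutation p = 0.00985, adjusted p = 0.0295), and FOSB and EGR1 0.62 (p = 0.0159, adjusted p = 0.0398). These 6 pairs passed at an adjusted p under 0.05 by r, but by rho 2 did (FOS with JUN and with EGR1). With levels centred within line and run 4 passed by r, and FOSB gave 0.68 with JUN (adjusted permutation p = 0.058) and 0.55 with EGR1 (adjusted permutation p = 0.0826).

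The other 9 pairs did not pass. FOS and ATF3 gave 0.59, JUN and EGR1 0.51, and FOSB and ATF3 0.51. EGR1 and ATF3 gave 0.20, and MYC gave 0.47 with ATF3, 0.39 with JUN, 0.16 with FOSB, 0.09 with FOS and -0.27 with EGR1 (adjusted permutation p from 0.113 to 0.791 over the 9). As a background, 2.70% of the other genes had an r above 0.5 with FOS, 2.56% with FOSB, 3.56% with JUN, 4.07% with EGR1, 1.63% with ATF3 and 5.22% with MYC. The members' transcripts come from the same arrays, so they share depth and slide. Their r with the share of probes well above background ran from 0.06 to 0.44, and with the array's 75th percentile from -0.47 to 0.04. Within pigs 55 to 62 the r with the 75th percentile ran from -0.89 (EGR1) to -0.42 (FOSB). Within pigs 1 to 8 it ran from -0.32 (MYC) to 0.55 (FOS). The part of the 75th percentile in the correlations between members was not tested.

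Several correlations changed when 1 pig was left out. Without high_RFI replicate 8, the pig at the top of 4 of the 6 genes, the median r over the 15 pairs was 0.36 and 1 pair passed, FOS and JUN (0.77, adjusted permutation p = 0.0498). Without low_RFI replicate 4, 2 pairs passed, and without high_RFI replicate 6, 3 did. Leaving out the 2 pigs farthest from the median, FOS and JUN gave 0.75, FOS and EGR1 0.72, JUN and ATF3 0.68, FOSB and EGR1 0.68, FOSB and JUN 0.55 and FOS and FOSB 0.50. With normexp background correction FOS and JUN gave 0.90 and FOSB and EGR1 0.84. FOS and EGR1 fell to 0.47 (adjusted permutation p = 0.246) and FOSB and JUN to 0.30. JUN and ATF3 fell to 0.32 and FOS and FOSB to 0.22, and none of these pairs passed with normexp. The dim probes of FOSB and ATF3 gave 0.92 with normexp. Its offset of 50 lies above the median signals of FOSB, ATF3 and EGR1 (14.8, 25.3 and 39.9). Levels of these probes then share the scaling of the array, and its part in these correlations was not tested.

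The pairs were also computed within the runs of pig numbers. In pigs 55 to 62 (n = 7) all 15 pairs had an r above 0, with a median of 0.82, and FOS and JUN reached 0.98. In pigs 1 to 8 (n = 8) 10 of 15 did, with a median of 0.29; JUN and ATF3 gave 0.74, FOS and EGR1 0.65 and FOS and JUN 0.38. The pair of EGR1 and MYC gave -0.90 in pigs 1 to 8 and 0.87 in pigs 55 to 62, beside -0.27 over all pigs. In pigs 1 to 8 the 3 pigs lowest in EGR1 were the 3 highest in MYC. The difference between the runs was not tested, and high_RFI replicate 8 belongs to pigs 55 to 62.

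**Figure D4:**
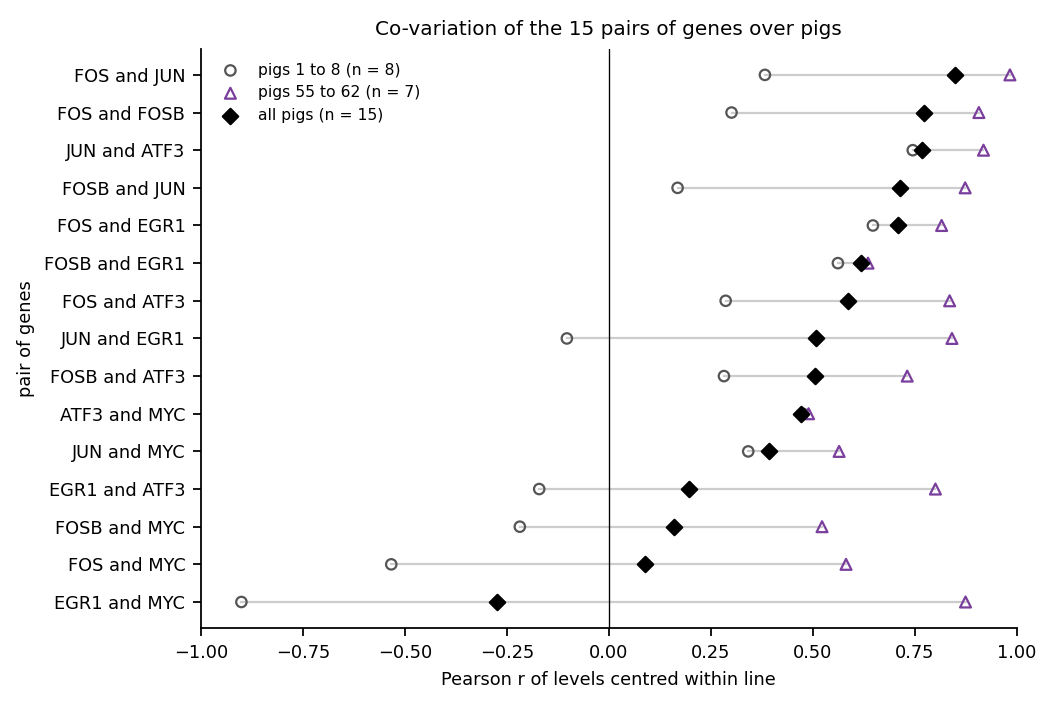
Pearson r of line-centred levels for the 15 pairs of genes over all 15 pigs (diamonds), pigs 1 to 8 (circles, n = 8) and pigs 55 to 62 (triangles, n = 7). Every triangle lies above 0, and the grey lines are longest for EGR1 and MYC, from -0.90 to 0.87.

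The levels themselves were compared between the runs with line in the model. Pigs 55 to 62 minus pigs 1 to 8 gave 0.93 ± 0.43 (SE) for EGR1, with means of -3.10 and -4.02, and 0.61 ± 0.25 (SE) for JUN, with means of 7.45 and 6.88. FOS gave 0.74, FOSB 0.61, ATF3 0.29 and MYC 0.097, so all 6 were above 0, where 2050 of 5036 genes were. The 6 had a median of 0.61 beside -0.048 over all genes. By limma 0 of the 6 passed, where 176 of 5036 genes (3.49%) did. JUN (limma adjusted p = 0.166) and EGR1 (limma adjusted p = 0.216) were under an unadjusted 0.05, so 2 of 6 were where 22.3% of all genes were. Normexp turned the run differences of FOSB and ATF3 below 0 and gave 0.081 for EGR1, and without high_RFI replicate 8 those of ATF3 and MYC were -0.066 and -0.011. The line-by-run interaction passed for 0 of the 6 and for 0 of 5036 genes (0%), with 0 of the 6 at an unadjusted limma p under 0.05 and 5.4% of all genes. Leukocyte markers were set beside the runs. Of 10 macrophage and leukocyte markers tested (of 15 listed), 9 were higher in pigs 55 to 62, with a median of 0.91, 6 at an unadjusted limma p under 0.05 and 0 passing. Their mean level ran from -2.45 to -0.66 in low_RFI pigs and from -2.28 to -0.52 in high_RFI pigs. Their part in the run differences was not tested. The r with the leukocyte mean was 0.26 for FOS, 0.33 for FOSB, 0.23 for JUN, 0.25 for EGR1, -0.049 for ATF3 and -0.25 for MYC. Within pigs 1 to 8 it was 0.41 for FOS, 0.27 for FOSB, -0.45 for JUN and 0.40 for EGR1. Within pigs 55 to 62 these were -0.11, 0.098, -0.19 and -0.55.

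Other genes of the response were taken as lists chosen with earlier results of these data known. Of 29 other immediate-early transcription factors, 16 were tested. Between lines 0 passed limma and 0 were under an unadjusted 0.05, with 9 of 16 above 0 and a median of 0.0090. EGR2, a relative of EGR1, had the smallest p (0.38 ± 0.21 SE, limma adjusted p = 0.769; -0.14 with normexp). Between the runs 0 of 16 passed limma, with 4 under an unadjusted 0.05, beside 22.3% of all genes. Among the 4 were the C/EBP factor CEBPD (0.62, limma adjusted p = 0.126) and the interferon-regulated factor IRF1 (0.94, limma adjusted p = 0.135). The orphan receptor NR4A2 correlated at 0.64 with FOS, 0.70 with FOSB and 0.61 with JUN. The Krüppel-like factors KLF4 and KLF2 gave 0.81 and 0.69 with FOSB. EGR2 and EGR3 gave 0.0055 and 0.18 with FOS. Of the 16, 3 had an r above 0.5 with FOS, 6 with FOSB, 2 with JUN, 3 with EGR1, 2 with ATF3 and 1 with MYC.

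Among 33 other immediate-early and feedback genes, 16 were tested and 0 passed in either comparison. At an unadjusted limma p under 0.05 were 1 between lines and 2 between runs, beside 7.11% and 22.3% of all genes. The 1 between lines was SOCS3, a feedback inhibitor of cytokine signalling, at -0.996 ± 0.44 (SE, limma adjusted p = 0.675), higher in high_RFI. BTG2, an antiproliferative early gene, gave 0.80 ± 0.42 (SE, limma adjusted p = 0.758), and the matrix protein CYR61 0.73 ± 0.36 (SE, limma adjusted p = 0.75). The DNA-damage and stress gene GADD45A gave 0.996 between the runs (limma adjusted p = 0.131, 0.0235 to 0.239 over the alternatives), and passed without low_RFI replicate 6, at 1.35 (adjusted p = 0.0235). BTG2 followed JUN at an r of 0.84, FOS and ATF3 each at 0.80, and CYR61 followed FOS at 0.81. SOCS3 gave -0.19 with FOS and -0.12 with JUN.

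Of 28 upstream kinases and factors, which carry the signal to these promoters, 12 were tested and 0 passed. Between lines 1 was under an unadjusted limma p of 0.05, the JUN kinase MAPK8, at 0.23 ± 0.088 (SE, limma adjusted p = 0.622; 0.027 with normexp). Between runs 1 was, ATF4, at -0.21 (limma adjusted p = 0.161). Over all genes 7.11% were under 0.05 between lines and 22.3% between runs. The SDs within line were small, 0.15 for MAPK8 and 0.18 for ATF4. Of 17 MYC partners and targets, 5 were tested. MXI1, a MAX partner that opposes MYC, was lower in pigs 55 to 62 by a log2 difference of -0.44 ± 0.11 (SE, limma adjusted p = 0.0365), 1 of 5 called where 1.37% of all genes were called in that direction. Its line difference was 0.0058 and its r with MYC -0.024. That call ended when any 1 of 11 of the 15 pigs was left out and with normexp (adjusted p = 0.135, range 0.0228 to 0.135), while the difference stayed between -0.49 and -0.37. The MYC targets ODC1, CDK4 and LDHA gave 0.29, 0.16 and 0.011 in r with MYC.

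Of 13 heat shock genes tested (of 17), all were above 0 between lines, with a median of 0.27, 4 under an unadjusted limma p of 0.05 and 0 passing. Of all 5036 genes, 2786 were above 0 and 358 (7.11%) were under an unadjusted 0.05. Of the heat shock genes, 3 had an r above 0.5 with FOS, 2 with JUN and 1 with ATF3, and HSPH1 gave 0.59 with FOS. Of 14 exercise, hypoxia and glucocorticoid response genes (of 20), 3 were above 0 between lines, with 1 under an unadjusted limma p of 0.05 and 0 passing. The growth factor VEGFA correlated at 0.60 with FOS and 0.62 with JUN, and was the only 1 of these 14 above 0.5 with either. The median r over the 14 was 0.15 with FOS and 0.066 with JUN. Of the other markers, 0 passed limma between lines or runs. Median line differences were 0.012 for skeletal muscle, -0.13 for 4 satellite cell and myoblast genes, -0.017 for 7 endothelium and smooth muscle genes and -0.017 for 6 fibroblast genes. They were -0.15 for 10 leukocyte genes, 0.062 for 9 adipocyte genes and 0.047 for the 1 blood gene tested, CA1. At an unadjusted limma p under 0.05 between lines were 1 satellite cell gene (MYOD1) and 1 fibroblast gene (LUM), and 0 of the others. Between the runs it was 4 of 13 skeletal muscle, 1 of 4 satellite cell, 3 of 6 fibroblast, 2 of 9 adipocyte and 6 of 10 leukocyte genes. The share over all genes was 22.3%.

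The genes most like the 6 in pattern were named by the highest r of line-centred levels over 15 pigs among 5030 other genes, with no test. The mean of the 6 was followed most closely by the sodium and glucose cotransporter SLC5A1 (0.91), BTG2 (0.88), CYR61 (0.84), the water channel AQP1 (0.81), RNPC3 (0.79) and a gene known only by a LOC identifier (0.79). Next came SRSF7, NR4A2, PLK3 and ACTB, from 0.77 to 0.74. SLC5A1 was among the 3 genes most like FOS (0.90), FOSB (0.81) and JUN (0.82), and the splicing factor SRSF7 among those of FOS (0.83) and JUN (0.81). FOSB was also followed by NEDD9 (0.82). EGR1 was followed by RASGEF1B (0.83), the kinase PLK3 (0.81) and the peptide hormone precursor ADM (0.78). ATF3 was followed by BTG2 (0.80), SP1 (0.79) and IFRD1 (0.74). MYC shared none of these, and was followed by PGGT1B (0.90), TIPIN (0.81) and ADCY4 (0.80).

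Markers of vessels were set beside MYC. The mean level of 7 endothelium and smooth muscle markers tested (of 10) ran from 3.12 to 3.29 in low_RFI pigs and from 2.98 to 3.46 in high_RFI pigs, and all 7 were well above background on 15 arrays. MYC correlated with this mean at 0.83 over 15 pigs (permutation p = 0.00049, adjusted over 90 relations p = 0.0441; Spearman rho 0.71, permutation p = 0.00968, adjusted p = 0.513). It gave 0.87 within pigs 1 to 8, 0.89 within pigs 55 to 62 and 0.73 without the 2 pigs farthest from the median. With normexp the correlation was 0.64. Leaving out 1 pig gave 0.73 to 0.87, the lowest without high_RFI replicate 4. By marker, r with MYC was 0.68 for the endothelial cadherin CDH5, 0.56 for PECAM1, 0.54 for KDR, 0.44 for CNN1, 0.37 for TEK, 0.14 for ACTA2 and 0.024 for VWF. Their part in the spread of MYC was not tested. The same mean gave 0.12 with FOS, 0.20 with FOSB, 0.27 with JUN, -0.19 with EGR1 and 0.50 with ATF3. MYC also gave 0.52 with the fibroblast mean, 0.62 within pigs 1 to 8 and 0.82 within pigs 55 to 62. Within pigs 55 to 62 MYC gave 0.90 with the mean of its partners and targets and 0.76 with that of skeletal muscle. Within pigs 1 to 8 these were -0.10 and -0.014. Of the 90 relations of the 6 genes with 13 list means and 2 array properties, 1 passed by r and 0 by rho.

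**Figure D5:**
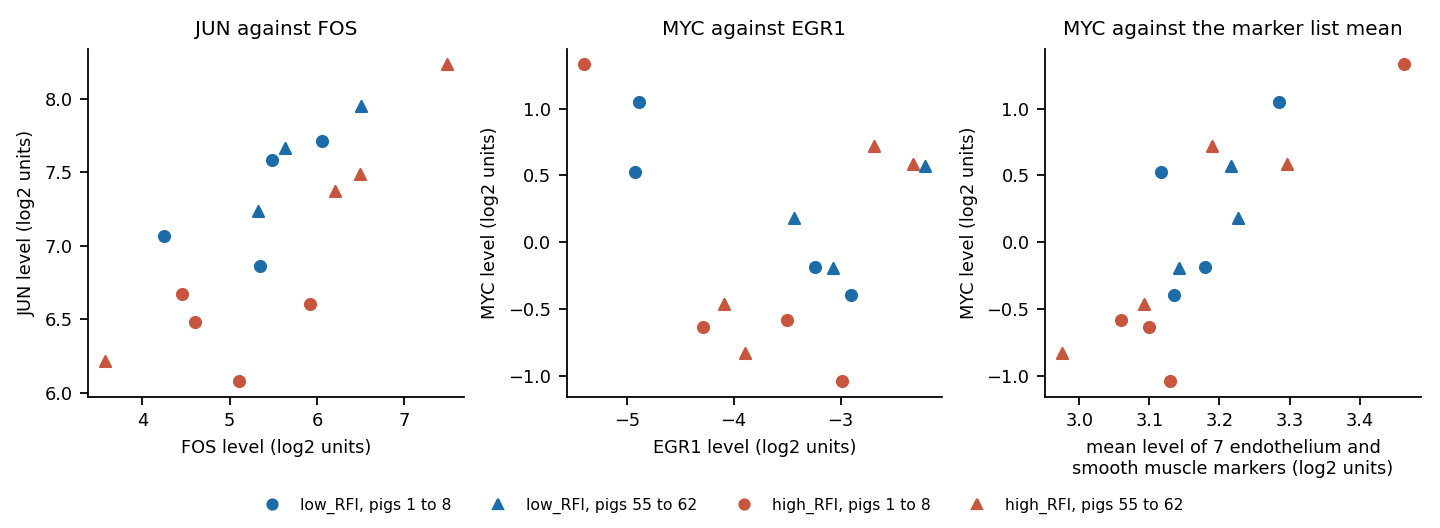
Levels in 15 pigs of JUN against FOS, of MYC against EGR1 and of MYC against the mean of 7 endothelium and smooth muscle markers (log2 units; colours are lines, circles pigs 1 to 8, triangles pigs 55 to 62). JUN follows FOS, with r of 0.85 after centring within line, MYC falls with EGR1 in pigs 1 to 8 and rises with it in pigs 55 to 62, and MYC follows the marker mean in both runs.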

How the data were processed

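The members, gene lists and tests were chosen with earlier results of these data known. Total RNA (150 ng) from each muscle was labelled with Cy3, per the labels' protocols. The scanner files hold intensity values from Feature Extraction 10.7.3.1, background-subtracted and detrended, with no normalization between arrays, per the file headers; other columns, per the file headers, flag spots. The authors' deposited table holds log2 values (R 2.10.0, per the submitters' processing notes). These equalled log2 processed signal minus the array median over 29364 spots (largest difference 4.93e-08), hold 10 of the 12 member probes and served as an alternative.

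Control and non-uniform spots were left out and spots of a probe averaged. A probe was tested when well above background on at least 7 of 15 arrays with at least 4 values per line (31989 of 43603 probes). Names came from accessions, symbols, synonyms (C-JUN for JUN) and descriptions through a RefSeq gene table (Sscrofa11.1): 12144 probes had 1 symbol, 838 a LOC name, and 30621 several or none. A gene was its tested probe of highest mean level. Lines, runs and their interaction were fitted over all genes, two-sided, with limma 3.58.1 in R 4.3.3 (statmod 1.5.0), and adjusted by Benjamini-Hochberg at 0.05. Intervals are limma's SE times the t quantile (scipy 1.17.1) at the residual degrees of freedom. Limma's p-values use more degrees of freedom, so the intervals are slightly wider than limma's own. Correlations used numpy 2.4.6 and 100000 permutations, two-sided. In simulated data with independent noise, 200 genes drawn from all 5036 were changed between lines. The fit recovered 20% of genes changed 1.25-fold, 68% of 1.5-fold, 94% of 2-fold and 100% of 3-fold, with 3.42% of 146 calls false. Where few genes differ, fewer would be found. The SD within line had a median of 0.26 over all genes but was 0.60 to 1.05 for the 6 members. The recovered shares therefore do not hold for these 6. The number of arrays, 15, limits the precision. The limma p-values set a difference against the spread between arrays, which holds pig, array and slide variation alike.

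Named genes are the members; from each list, genes of smallest p between lines or runs and every called gene; and the genes of highest r. List genes named for their r, and VEGFA, HSPH1, KLF2, NR4A2, EGR3, ODC1, CDK4 and LDHA, were singled out with their values in view. The alternatives were background correction (normexp, offset 50), normalization, the deposited table, filters and probes. They also were slide, run and replicate blocks, the limma model, the correlation measure and each array left out. The floor for dim values, and the alternatives for list genes and for MYC with the marker list, were added after seeing the data. Promoters and proteins are not analysed here.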

Additional observations from a re-analysis of the deposited data

How the results depend on the processing

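The 6 immediate-early genes passed in 0 of the alternatives between lines, runs or in the interaction. Genes called between lines numbered 1 with all pigs, 0 with normexp, median centring, the deposited table, no filter on dim probes, slide as a fixed block or the run as a block, 2 with quantile normalization or the mean of probes, and 0 to 3 with 1 pig left out. Replicate numbers shared by the lines did not pair the pigs (correlations of deviations -0.021 to 0.30, and 1 of 7 low_RFI pigs correlated best with its own number), and with a replicate block 0 genes were called and no call of the 6 genes changed. Genes called between the runs numbered 176, 64 with normexp, 341 and 308 with slide as a fixed and a random block, and 78 to 243 with 1 pig left out. The interaction called 0 genes in every alternative run.

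With normexp (offset 50), line differences turned to -0.085 for FOSB, -0.0993 for EGR1 and -0.14 for EGR2. Run differences turned to -0.093 for FOSB and -0.20 for ATF3, and the correlation of EGR1 and MYC to 0.42. Slide as a fixed block turned the MYC run difference to -0.013 and the FOSB interaction to 0.029, and the floor turned the FOSB line difference to -0.023. With 1 pig left out, line differences ran from -0.24 to 0.32 for FOS and from -0.13 to 0.36 for EGR1, run differences from -0.066 to 0.55 for ATF3 and from -0.049 to 0.35 for MYC. The interaction ran from -1.17 to 0.13 for FOS, from -0.82 to 0.37 for FOSB and from -0.066 to 0.74 for EGR1. Correlations ran from -0.092 to 0.34 for FOS and MYC, from -0.012 to 0.29 for FOSB and MYC, from -0.081 to 0.36 for EGR1 and ATF3 and from -0.44 to 0.045 for EGR1 and MYC.

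The median r over pairs was 0.51, 0.29 within pigs 1 to 8 and 0.82 within pigs 55 to 62. Within pigs 1 to 8, FOS and MYC gave -0.53, FOSB and MYC -0.22, JUN and EGR1 -0.10 and EGR1 and ATF3 -0.17, and within pigs 55 to 62 EGR1 and MYC gave 0.87. Without the 2 pigs farthest from the median, FOS and MYC gave -0.19, FOSB and MYC -0.060 and EGR1 and MYC 0.14. The causes were not tested. Signal over background limits FOSB, ATF3 and EGR1, which were not well above background on 5, 3 and 1 arrays.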
